A study of Mus musculus with 24 samples.

Results

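The genes described here encode parts of the motile cilium, the beating organelle that ependymal cells carry on the wall of the brain ventricles. They were chosen by name and level: protein-coding rows of the count table whose symbol starts with Dnah, Dnai, Cfap, Rsph, Tekt or Drc followed by a digit, with a mean of at least 0.1 CPM (read counts scaled by the library total) over the 24 libraries. Of 64 rows that matched by name, 62 met the level, out of 28859 genes in the table. No row carried a symbol of Dnai followed by a digit. The members nearest the level on the inside were Dnah8 (mean 0.367 CPM), Dnah17 (0.388 CPM) and Tekt3 (0.616 CPM), and the 2 rows below it were Rsph6a (0.0934 CPM) and Cfap97d1 (0.00107 CPM). All 62 members passed the filter on low counts.

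The libraries were made from poly(A) RNA of the lateral septum, a forebrain nucleus that borders the lateral ventricle, of male C57BL/6J mice whose age the labels give as 8 to 14 weeks. In the chronic social defeat stress protocol (CSDS) a CD-1 aggressor attacked each stressed mouse for 10 minutes a day, and control mice were kept in the same way without defeat. The labels place 3 stressed and 3 control libraries at each of days 1, 4, 7 and 10, which gives 8 groups of 3. They do not say that each library is a separate animal or whether animals were pooled, so p-values measure the spread between libraries, which may be partly technical.

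A motile cilium is built around an axoneme, a ring of doublet microtubules with a central pair. Dynein arms on the doublets drive the beat, radial spokes and the nexin-dynein regulatory complex govern them, and tektins and other proteins line the inside of the doublets. In ependyma these genes are switched on by FOXJ1 and by RFX factors, which bind a DNA element called the X-box, and the cilia move cerebrospinal fluid.

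Promoter sequences are shown for 4 members because each holds letters of the X-box and because they differ in how their RNA varied between libraries. The windows run from 250 bases before to 50 bases after the gene's start and come from RefSeq on GRCm38.p6, an older build than the GRCm39 named in the submitters' processing notes. Capitals mark an arm of the X-box, GTTGCC, on either strand (GGCAAC on the other), or the full element GTTGCCNNGGCAAC, in which both arms face each other. Tekt1 lies on the minus strand at chr11:72361833-72362132, Cfap161 on the minus strand at chr7:83794790-83795089, Cfap20dc on the minus strand at chr14:8666241-8666540 and Cfap298 on the minus strand at chr16:90934800-90935099. Another listed start of Tekt1, with its window at chr11:72361247-72361546, is not printed and held no match.
Tekt1: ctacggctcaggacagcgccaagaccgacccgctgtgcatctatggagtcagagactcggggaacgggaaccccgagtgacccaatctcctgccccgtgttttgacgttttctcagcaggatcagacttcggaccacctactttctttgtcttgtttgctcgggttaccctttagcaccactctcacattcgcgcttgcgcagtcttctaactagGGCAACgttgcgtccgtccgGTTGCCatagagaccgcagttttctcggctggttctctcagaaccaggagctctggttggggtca
Cfap161: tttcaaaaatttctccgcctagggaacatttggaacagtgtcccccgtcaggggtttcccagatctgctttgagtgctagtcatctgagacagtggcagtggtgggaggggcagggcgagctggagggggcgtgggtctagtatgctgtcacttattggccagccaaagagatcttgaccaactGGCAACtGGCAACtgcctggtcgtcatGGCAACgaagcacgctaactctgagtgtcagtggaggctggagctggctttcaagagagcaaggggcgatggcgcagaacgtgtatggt
Cfap20dc: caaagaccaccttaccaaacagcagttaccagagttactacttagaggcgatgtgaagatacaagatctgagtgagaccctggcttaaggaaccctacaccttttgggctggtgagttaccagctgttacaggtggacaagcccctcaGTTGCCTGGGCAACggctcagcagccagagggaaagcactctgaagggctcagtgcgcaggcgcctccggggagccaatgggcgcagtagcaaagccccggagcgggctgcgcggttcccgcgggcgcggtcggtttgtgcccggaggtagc
Cfap298: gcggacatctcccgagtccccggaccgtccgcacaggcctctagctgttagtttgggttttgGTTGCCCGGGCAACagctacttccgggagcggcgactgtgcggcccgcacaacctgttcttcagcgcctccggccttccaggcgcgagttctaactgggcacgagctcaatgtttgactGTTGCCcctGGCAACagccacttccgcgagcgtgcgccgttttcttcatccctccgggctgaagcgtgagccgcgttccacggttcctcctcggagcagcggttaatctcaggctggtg
Of the 62 members, 52 had a promoter in the RefSeq table, and 20 of these 52 genes (38.5%) held the X-box arm on either strand, against 14.1% of all 27025 genes with a promoter of the same length. The full element, which contains the arm on both strands, was found in Cfap20dc and Cfap298 (3.85% of the 52, against 0.111% of all genes). A forkhead spelling, TGTTTAC on either strand, was found in 4 of the 52 (7.69%, against 4.05%). Of the 4 genes printed, Tekt1 and Cfap161 followed the ependymal markers described next, whereas the slopes of Cfap20dc and Cfap298 did not pass the test. The arm stood in 6 of 24 members whose RNA followed these markers and in 14 of 28 whose slope did not pass the test. These matches are descriptions of letters in the window.

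Total counts ran from 31182747 to 41205354 per library. Ventricle-wall content was read from 18 ependymal marker genes, none of them a member, as the mean of their log2 CPM (the ependymal score). They were Foxj1, Ccdc153, Tmem212, Rarres2, Mia, Dynlrb2, Enkur, Sntn, Hdc, Ak7, Ccdc113, Mlf1, Meig1, Tm4sf1, Pifo, Spag6l, Nek5 and Iqub. All 18 were above 0 in all 24 libraries. Foxj1, the regulator named above, ranged from 22.3 to 51.1 CPM. The score ran from 2.45 in day 1 control library 2 to 3.74 in day 7 control library 3. Choroid plexus, the epithelium that floats in the same ventricle and secretes cerebrospinal fluid, was read from 20 marker genes in the same way. Its score ran from 0.578 to 6.499, and Ttr, the transthyretin gene that choroid plexus expresses strongly, from 5.01 to 8945 CPM. In bulk tissue, fewer ependymal cells in the dissected piece and less RNA per ependymal cell cannot be told apart. Exons of 10 members (Cfap43, Cfap61, Cfap73, Cfap97, Cfap100, Cfap157, Dnah3, Dnah11, Dnah14 and Dnah17) overlap another protein-coding gene, and their values are uncertain. That gene lies on the opposite strand in each case except Cfap43, whose neighbour Itprip is on the same strand. Strand use in counting is not stated, and for Cfap43 it would not settle the values. In day 10 control library 1, 1 transcript with no gene name (LOC118568312) took 6.03% of all counts.

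**Figure D1:**
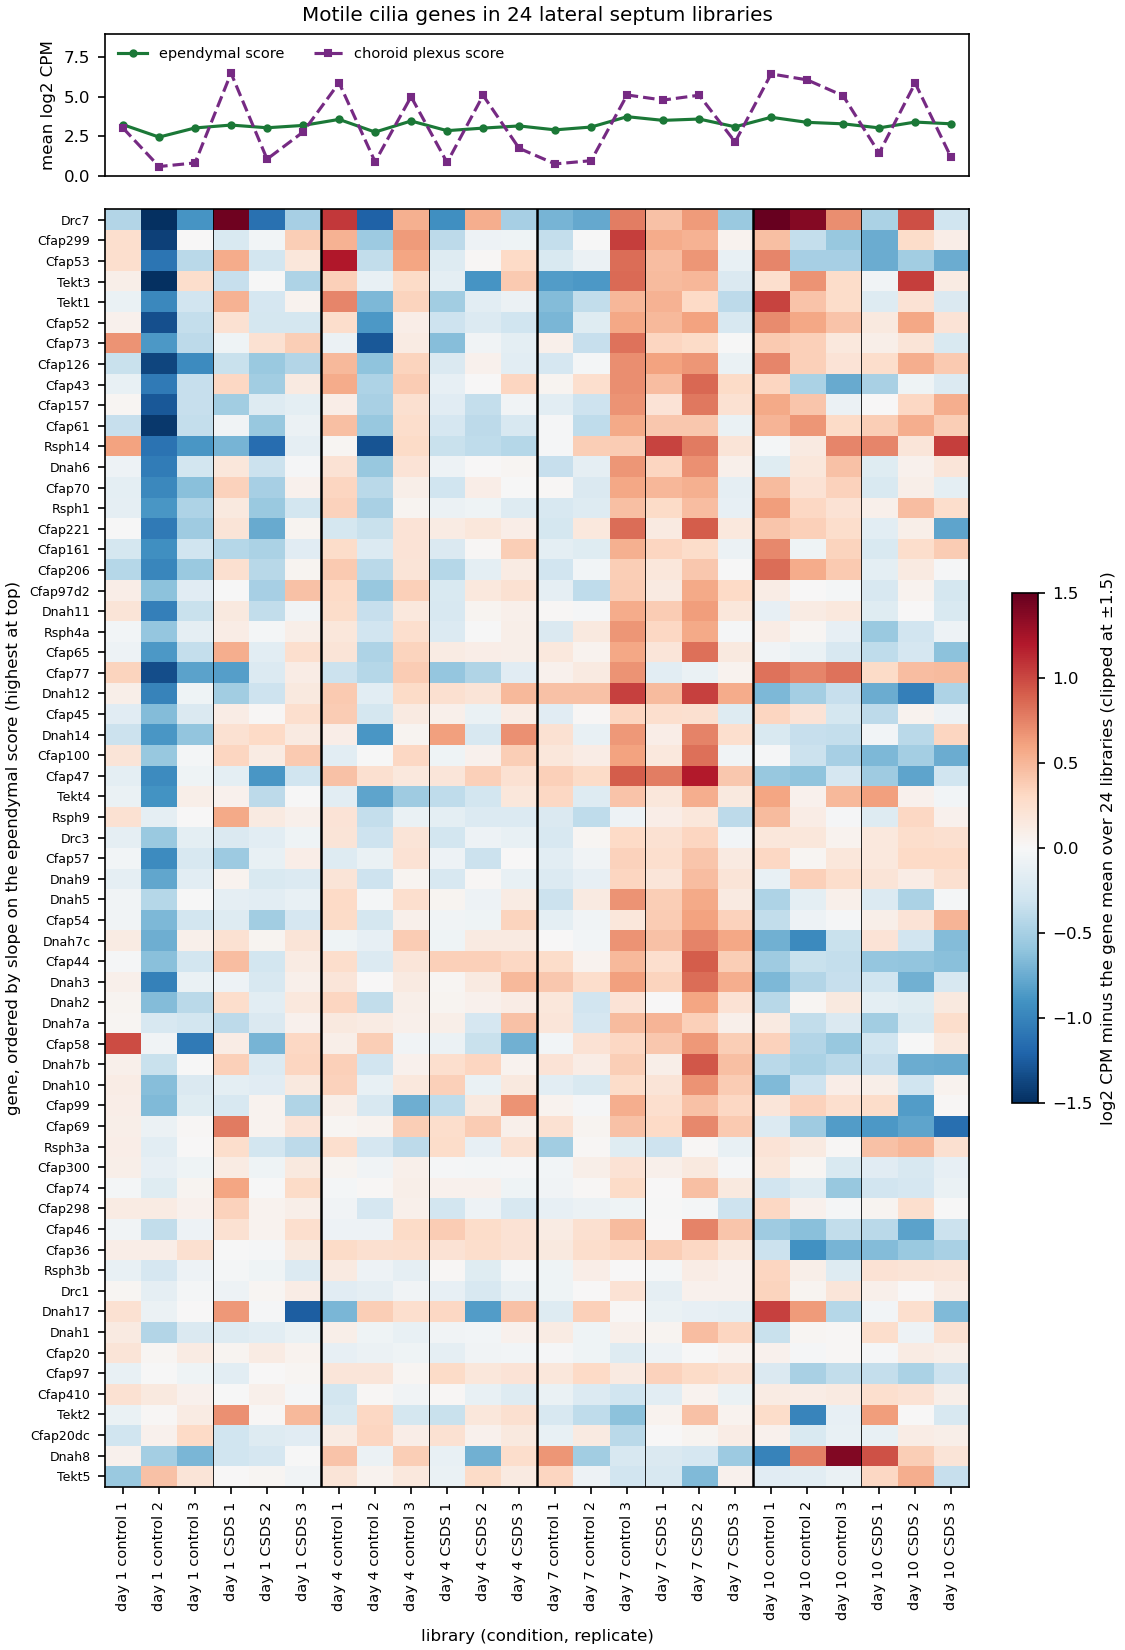
Upper panel: ependymal and choroid plexus scores (mean log2 CPM) of the 24 libraries, in order of day, condition and replicate. Lower panel: log2 CPM of the 62 genes minus each gene's mean over the 24 libraries, with genes ordered by their slope on the ependymal score, the color scale clipped at ±1.5, thick lines between days and thin lines between control and CSDS. Most genes in the upper rows were lowest in day 1 control library 2, where the score was 2.45, and many were high in day 7 control library 3, where it was 3.74.

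Per length, the highest member was Cfap20, a protein of the junction between the tubules of a doublet, with a mean of 26.9 FPKM (fragments scaled by transcript length and library total). Cfap36 followed with 19.0 FPKM, Rsph1 with 18.2, Cfap410 with 11.1 and Cfap300 with 9.34. The sperm-associated heavy chains Dnah8 and Dnah17 were lowest at 0.0241 and 0.0252 FPKM. Within groups the members varied more than the typical gene: the median standard deviation of log2 CPM was 0.30 over the 62 members and 0.16 over the 18060 genes tested. The most even member was Cfap20, which stayed between 32.0 and 42.1 CPM, and the most variable ones reached 10.3 times their lowest value (Drc7) and 6.31 times (Tekt3).

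The first question was whether a member's RNA followed ventricle-wall content from library to library within the 8 groups. Of the 62 members, 32 rose with the ependymal score and none fell. All 32 passed an adjusted p of 0.05 in edgeR's quasi-likelihood test, whereas 7.25% of all 18060 genes tested passed it above 0 and 4.16% below 0. The slope, in log2 CPM per unit of score, was above 0 in 56 of 62 members, with a median of 0.55 over the members and of -0.01 over all genes tested. A slope of 1 means that the gene moved by as many log2 units as the marker mean. The members were chosen for their known place in cilia and the markers for the same cell type. Some markers, such as Dynlrb2 and Spag6l, are cilia genes themselves. The direction is therefore not independent of the choice. These slopes cannot tell ependymal content from the level of cilia genes as a whole.

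Tekt1, a filament protein built into the doublet wall, shows the pattern. In control libraries Tekt1 stood at 6.91, 3.81 and 6.11 CPM on day 1, then 12.3, 4.65 and 9.39 CPM on day 4, then 4.72, 5.78 and 10.52 CPM on day 7 and 15.0, 9.98 and 8.96 CPM on day 10. In stressed libraries it stood at 10.6, 6.22 and 7.73 CPM on day 1, then 5.16, 6.67 and 6.99 CPM on day 4, then 10.7, 9.12 and 5.66 CPM on day 7 and 6.49, 8.66 and 6.40 CPM on day 10. The lowest value belonged to the library with the lowest ependymal score, and the 2 highest values to control libraries with high scores on days 4 and 10. The slope was 1.45 (SE 0.14, adjusted p = 3.58e-06, edgeR). Among the other tektins Tekt3 rose with the score (1.48, SE 0.38), and Tekt4 had a slope of 0.57 (SE 0.23, adjusted p = 0.120, edgeR). Tekt5 had a slope of -0.45 (SE 0.21, adjusted p = 0.181, edgeR) and ranged from 4.45 to 10.3 CPM, with its lowest value in day 7 CSDS library 2, where the score was 3.59. Tekt2 had a slope of -0.16 (SE 0.28). Thus 2 of the 5 tektins rose, and the slopes of the other 3 stood on either side of 0.

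**Figure D2:**
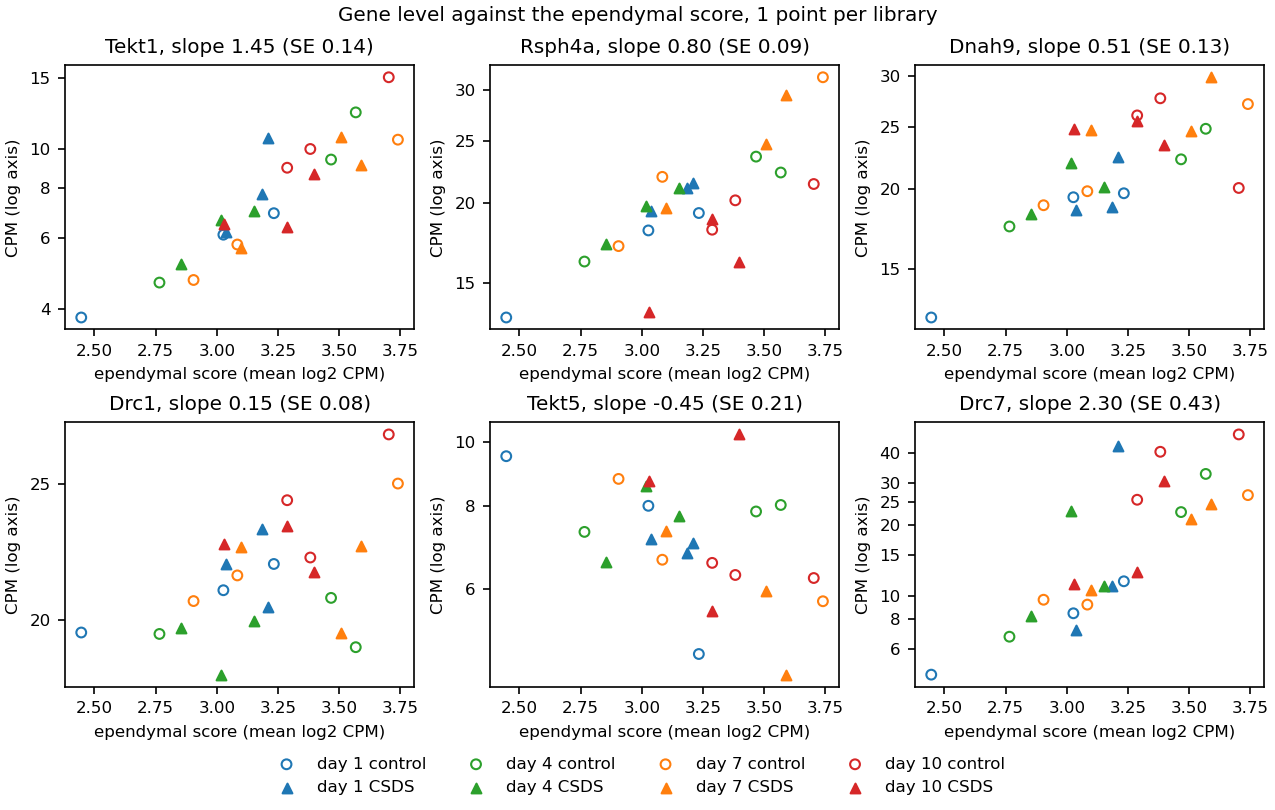
CPM of 6 members (log axis) against the ependymal score (mean log2 CPM), with 1 point per library, circles for control and triangles for CSDS, colored by day. Tekt1, Rsph4a and Dnah9 were lowest in the library with the lowest score (2.45), Drc1 and Tekt5 showed slopes of 0.15 and -0.45 that did not pass the test, and Drc7 rose from 4.68 to 48.1 CPM.

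Proteins that sit inside the doublet microtubules gave 5 of 7 members that rose with the score. They were Cfap53 (slope 1.66, SE 0.22), Cfap52 (1.40, SE 0.14), Cfap126 (1.21, SE 0.11), Cfap161 (0.89, SE 0.14) and Cfap45 (0.71, SE 0.11). For Cfap126, which is also known to act in basal body positioning, control libraries held 6.68, 3.23 and 4.37 CPM on day 1, then 11.8, 5.52 and 10.6 CPM on day 4, then 7.06, 8.24 and 13.6 CPM on day 7 and 14.0, 10.8 and 9.71 CPM on day 10. Stressed libraries held 6.66, 5.70 and 6.20 CPM on day 1, then 7.24, 8.82 and 7.52 CPM on day 4, then 12.8, 13.3 and 7.84 CPM on day 7 and 10.1, 12.2 and 11.1 CPM on day 10. The 2 highest values again came from control libraries, on days 7 and 10, and the groups of a day overlapped on all 4 days. Cfap77 had a slope of 0.78 (SE 0.27, adjusted p = 0.0637, edgeR). Cfap20 had a slope of 0.00 (SE 0.06).

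Outer dynein arms, which supply most of the power of the beat, had 3 of 5 heavy chains that rose. Dnah11 had a slope of 0.83 (SE 0.15), Dnah9 of 0.51 (SE 0.13) and Dnah5 of 0.51 (SE 0.15). Dnah9 ran from 12.6 to 29.9 CPM with a median of 22.1, and Dnah5 from 13.4 to 29.6 CPM with a median of 18.2. Both had low levels in day 1 control library 2, but the lowest Dnah5 values came from day 10 libraries. Dnah17 and Dnah8, at medians of 0.365 and 0.315 CPM, had slopes of 0.11 (SE 0.48) and -0.25 (SE 0.49).

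Inner dynein arms shape the waveform, and 2 of 10 heavy chains rose, Dnah6 (0.97, SE 0.16) and Dnah12 (0.72, SE 0.19). The slopes of all 10 were above 0, with a median of 0.44. Dnah1 was flattest at 0.09 (SE 0.13), with levels from 21.1 to 39.4 CPM. Dnah14 had a slope of 0.68 (SE 0.26, adjusted p = 0.0908, edgeR). Dnah2 and Dnah10, which pair in a single inner arm motor, had slopes of 0.44 (SE 0.18) and 0.36 (SE 0.19), and that of Dnah3 was 0.44 (SE 0.18). Dnah7a, Dnah7b and Dnah7c are near copies on chromosome 1, so reads could be split among them and their values are uncertain. Their slopes were 0.42, 0.38 and 0.49.

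Radial spokes, which pass signals from the central pair to the dyneins, gave 5 of 8 members that rose. The spoke head proteins Rsph1 (0.92, SE 0.11), Rsph4a (0.80, SE 0.09) and Rsph9 (0.57, SE 0.13) rose, as did Cfap61 (1.05, SE 0.16) and Cfap206 (0.87, SE 0.12), which belong to spoke bases. Rsph4a stood at 19.3, 13.3 and 18.1 CPM on day 1, then 22.3, 16.2 and 23.6 CPM on day 4, then 17.1, 22.0 and 31.4 CPM on day 7 and 21.4, 20.2 and 18.2 CPM on day 10 in control libraries. In stressed libraries Rsph4a stood at 21.5, 19.5 and 21.1 CPM on day 1, then 17.3, 19.8 and 21.1 CPM on day 4, then 24.7, 29.4 and 19.7 CPM on day 7 and 13.5, 16.2 and 18.9 CPM on day 10. Its 2 highest levels were in day 7 libraries with scores of 3.74 and 3.59, and its 2 lowest were in day 1 control library 2 and day 10 CSDS library 1. The stalk genes Rsph3a and Rsph3b, also near copies, had slopes of 0.26 (SE 0.17) and 0.15 (SE 0.11). Rsph14 had a slope of 0.98 with a wide error (SE 0.39), at a median of 1.02 CPM.

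The nexin-dynein regulatory complex links neighbouring doublets. Drc3 rose (slope 0.56, SE 0.07) and so did Drc7 (2.30, SE 0.43, adjusted p = 0.00200, edgeR), whereas Drc1, the base of the complex, had a slope of 0.15 (SE 0.08, adjusted p = 0.271, edgeR). The steepest slope of all members belonged to Drc7. In control libraries Drc7 stood at 11.6, 4.68 and 8.48 CPM on day 1, then 32.8, 6.76 and 22.6 CPM on day 4, then 9.68, 9.23 and 26.7 CPM on day 7 and 48.1, 40.6 and 25.5 CPM on day 10. In stressed libraries it stood at 42.9, 7.23 and 11.1 CPM on day 1, then 8.27, 22.8 and 11.1 CPM on day 4, then 21.2, 24.4 and 10.6 CPM on day 7 and 11.3, 30.7 and 12.7 CPM on day 10. Every library above 20 CPM had a choroid plexus score of at least 4.79, and every library below 13 CPM had one of at most 3.02.

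Among proteins that tether or dock dyneins, 6 of 6 members rose with the score. Of these, Cfap43, Cfap73 and Cfap100 have exons that overlap another protein-coding gene, so their values are uncertain. Cfap43 (1.21, SE 0.15) and Cfap44 (0.49, SE 0.15) form the tether of an inner arm motor, Cfap73 (1.23, SE 0.25) and Cfap100 (0.67, SE 0.16) form an adaptor of it, and Cfap57 (0.53, SE 0.16) and Cfap70 (0.93, SE 0.15) are bound to inner and outer arms. Of 7 Cfap proteins of the central apparatus, 3 rose: Cfap221 (0.90, SE 0.26), Cfap65 (0.78, SE 0.15) and Cfap54 (0.50, SE 0.13). Cfap47 had a slope of 0.60 (SE 0.20), Cfap69 of 0.33 (SE 0.16), Cfap74 of 0.25 (SE 0.13) and Cfap46 of 0.22 (SE 0.15). Of the dynein assembly factors, Cfap300 rose (0.26, SE 0.08) and Cfap298 had a slope of 0.24 (SE 0.10, adjusted p = 0.107, edgeR). None of the 3 broadly expressed members passed: Cfap36 had a slope of 0.19 (SE 0.09), Cfap97 of -0.06 (SE 0.08) and Cfap410 of -0.13 (SE 0.08). Outside these roles Cfap299 (1.71, SE 0.21), Cfap157 (1.08, SE 0.20) and Cfap97d2 (0.86, SE 0.20) rose, and Cfap58, Cfap99 and Cfap20dc had slopes of 0.42, 0.35 and -0.21 that did not pass.

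**Figure D3:**
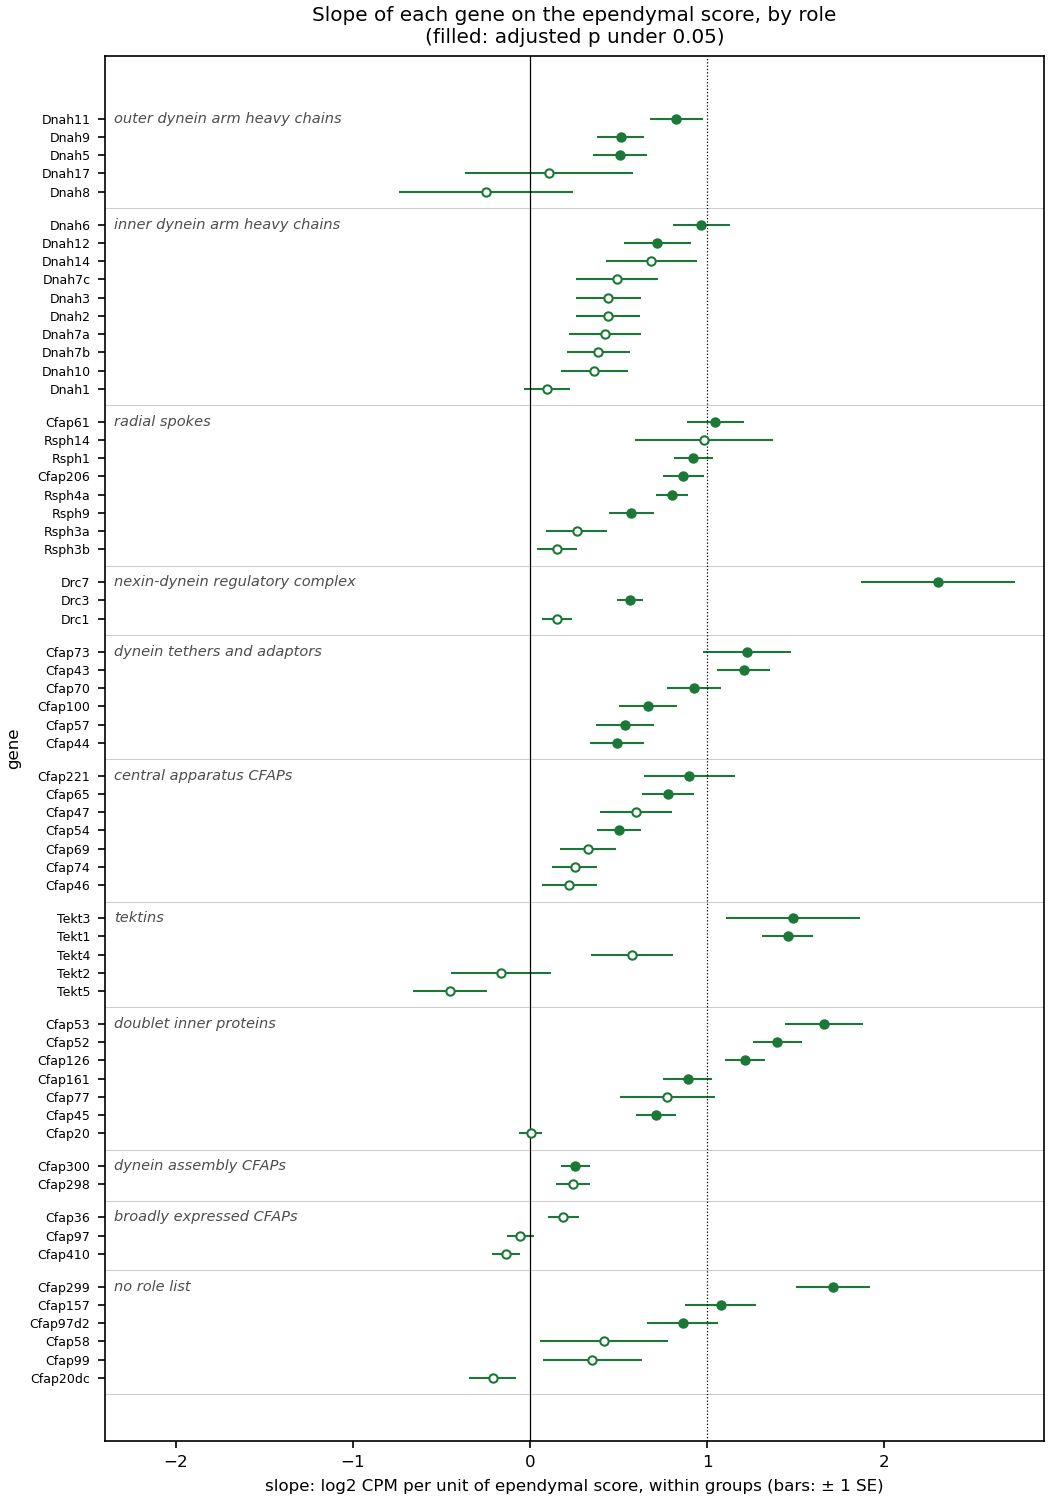
Slope of log2 CPM on the ependymal score for the 62 members, grouped by role, with bars of ± 1 SE and filled points at an adjusted p under 0.05. The dotted line marks a slope of 1, the slope of the marker mean. Filled are 6 of 6 tethers and adaptors but 2 of 10 inner arm heavy chains. Among the tethers and adaptors, Cfap43, Cfap73 and Cfap100 overlap another protein-coding gene.

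Cilia genes under other symbols are not members by the rule but belong to the same structures. Of 16 such axonemal genes, 12 rose with the ependymal score and none fell, among them the dynein intermediate chains Dnaic1 (0.43, SE 0.12) and Dnaic2 (0.62, SE 0.14). Dynein assembly and docking genes gave 12 of 19 that rose and further central apparatus genes 5 of 7, whereas Hydin, a giant central apparatus protein, had a slope of 0.75 (SE 0.25, adjusted p = 0.0518, edgeR). Intraflagellar transport genes, which both motile and primary cilia use, gave 3 of 24, with a median slope of 0.12. Among other cell types, neuronal markers of the lateral septum gave 0 of 10 (median slope -0.07), markers of cortex or hippocampus neurons 0 of 6 (-0.38), markers of newborn neurons of the ventricle wall 1 of 10 (-0.06) and astrocyte markers 2 of 6 (0.14, highest 0.62). Choroid plexus markers gave 20 of 20, with a median slope of 5.97. With the choroid plexus score also in the fit, 3 of 6 astrocyte markers and 1 of 10 newborn neuron markers rose. The part of astrocyte content in the members' slopes was not tested. Of the X-box binding factors, Rfx2 had a slope of 0.36 (SE 0.17) and Rfx3 of -0.10 (SE 0.08), and neither passed the test.

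The slope was also fitted in the 12 control and the 12 stressed libraries separately, an alternative added after the data had been seen. In control libraries alone 25 members rose, against 4.88% of all genes, and 24 of them were among the 32. In stressed libraries alone none of the 62 was called, as was none of all genes tested (0%), and 21 members had an unadjusted p under 0.05 in edgeR, against 10.7% of all genes. The median slopes over the members were 0.56 in control and 0.50 in stressed libraries. The within-group standard deviation of the score itself was 0.387 in control and 0.184 in stressed libraries, and its part in these counts was not tested. A test of the difference between both slopes called 0 of 62 members and 0% of all genes, with 0 members at an unadjusted p under 0.05 in edgeR against 2.35% of all genes, and a median difference of 0.01.

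Choroid plexus content moved with ependymal content, so the members were also fitted on the choroid plexus score. Within groups the ependymal and choroid plexus scores had a Pearson correlation of 0.73. Of the 18 ependymal markers, 11 rose with the choroid plexus score. On the choroid plexus score alone 22 members rose and none fell, against 6.23% of all genes above 0 and 3.16% below, and 30 members had an unadjusted p under 0.05 in edgeR, against 23.4% of all genes. With both scores in 1 fit, 16 members rose with the ependymal score and none fell, against 1.56% of all genes above 0 and 0.31% below, and all 16 were among the 32. They included Cfap299 (slope 1.99), Cfap157 (1.52), Cfap53 (1.49), Dnah12 (1.25), Tekt1 (1.08), Cfap126 (1.04) and Rsph4a (0.87). In the same fit 1 member rose with the choroid plexus score, against 2.44% of all genes: Drc7, with a slope of 0.35 (adjusted p = 6.79e-08, edgeR), and an ependymal slope of 0.39 (adjusted p = 0.465, edgeR). The choroid plexus slopes of the other 61 members lay between -0.10 and 0.08. At an unadjusted p under 0.05 in edgeR, 14 of the 62 members (22.6%) had a choroid plexus slope of either sign in this fit, against 13.6% of all genes.

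**Figure D4:**
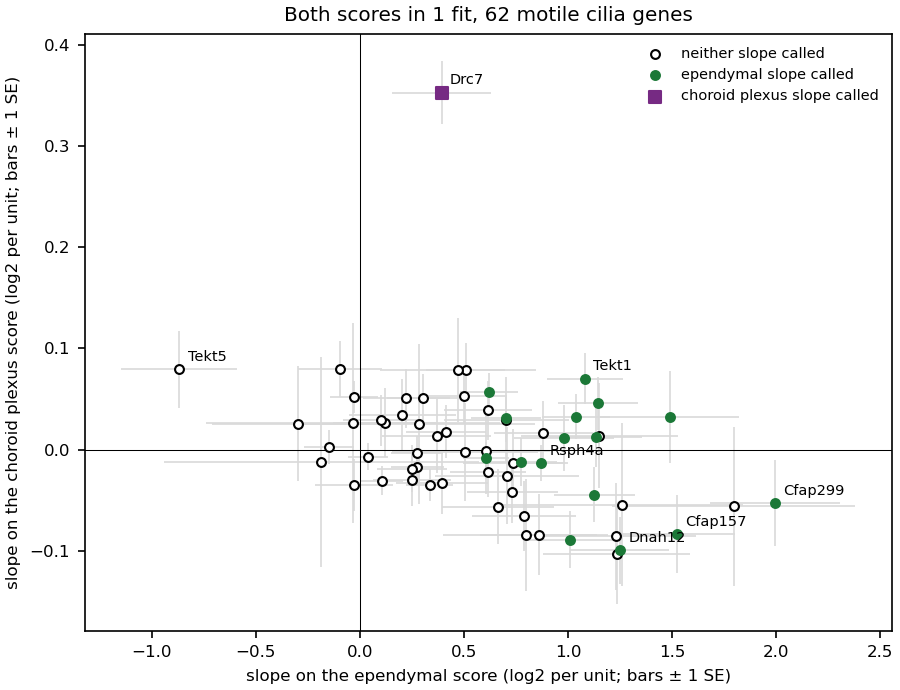
Slopes of the 62 members on the ependymal score (horizontal) and on the choroid plexus score (vertical), in log2 CPM per unit, from 1 fit with both scores and the 8 group means, with bars of ± 1 SE. The 16 members with a called ependymal slope lie to the right, at choroid plexus slopes between -0.10 and 0.08. Drc7 stands apart at 0.39 and 0.35. The choroid plexus score had the wider range, so equal slopes on both axes are not equal changes.

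The second question was whether CSDS changed these genes on any day. No member was called on day 1, 4, 7 or 10, in the mean of the 4 daily differences, or in the test of whether the response differed between days, by edgeR's quasi-likelihood test. Of all genes tested, 0.00554% were called on day 1, 0.111% on day 4, 0.00554% on day 7, 0.166% on day 10, 0.116% in the mean and 0.0221% in the test between days. At an unadjusted p under 0.05 the members numbered 9, 0, 3 and 3 on the 4 days, 6 in the mean and 2 in the test between days, against 7.88%, 8.33%, 4.28%, 12.8%, 6.47% and 11.0% of all genes. DESeq2 and limma called 0 members on each day and in the mean, and in the test between days limma called 0 and DESeq2 called 1, Cfap206 (adjusted p = 0.0344), against 1.24% of all genes that DESeq2 tested. The median standard error of a daily log2 fold change over the members was 0.22 to 0.23, and that of the mean over 4 days was 0.11.

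The members' daily medians had the same sign as those of the marker genes, though on day 4 the members' median was small beside the markers'. On day 1 the members had a median log2 fold change of 0.20 and 50 of 62 were above 0, while the ependymal markers had a median of 0.18 and the choroid plexus markers of 3.49. On day 4 the members' median was -0.03 with 24 above 0, the ependymal markers' was -0.30 and the choroid plexus markers' was -1.28. On day 7 the values were 0.15 with 54 above 0, 0.14 and 0.76, and on day 10 they were -0.07 with 24 above 0, -0.13 and -1.47. The median over all genes tested lay between -0.01 and 0.02 on each day. With the ependymal score in the fit, the members' medians were 0.07, 0.12, 0.08 and 0.04 on days 1, 4, 7 and 10, and again edgeR called 0 members on any day, in the mean and in the test between days, against 0.00554%, 0.249%, 0.00554%, 0.127%, 0.183% and 0.0664% of all genes. At an unadjusted p under 0.05 in that fit the members numbered 6, 2, 3 and 6 on the 4 days, against 7.67%, 9.85%, 5.04% and 10.9% of all genes. In the mean they numbered 13 (21%), against 7.90%, and in the test between days 3 (4.84%), against 11.1%. In the mean with the score, 50 of 62 members were above 0, against 52.2% of all genes, and the members are not independent of each other.

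**Figure D5:**
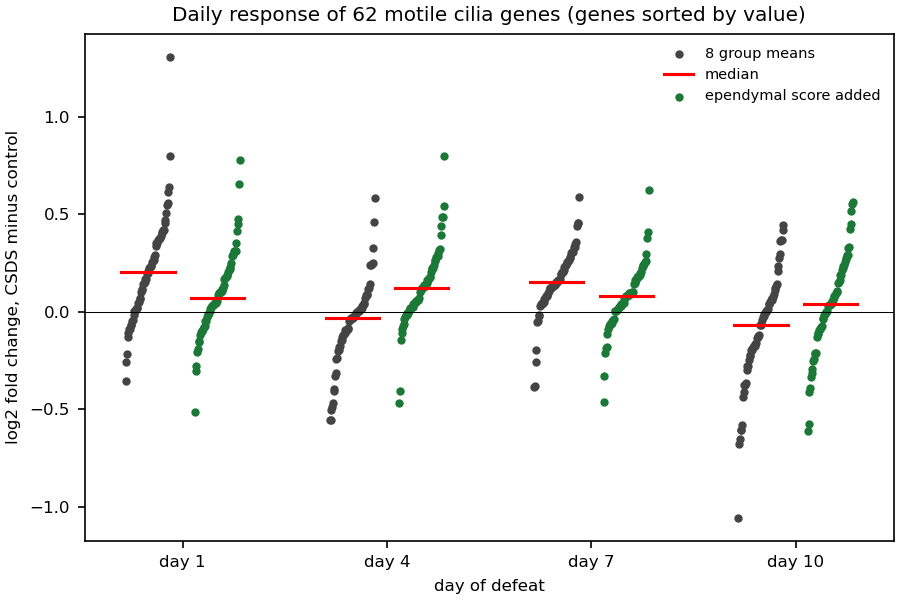
Log2 fold change of the 62 members, CSDS minus control, on each day, from the 8 group means (grey) and with the ependymal score added (green), with genes sorted by value and the median as a red line. The medians were 0.20, -0.03, 0.15 and -0.07 without the score and 0.07, 0.12, 0.08 and 0.04 with it.

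Cfap206, the spoke base gene named above, had the smallest p in the test between days (adjusted p = 0.251 in edgeR). On day 1 it stood at 5.87, 4.02 and 5.38 CPM in control and 9.32, 5.91 and 8.14 CPM in stressed libraries, and the stressed libraries were all above the controls (log2 fold change 0.61, SE 0.22, adjusted p = 0.564, edgeR). On day 10 it stood at 14.1, 11.6 and 10.3 CPM in control and 7.15, 8.68 and 7.82 CPM in stressed libraries, and here the stressed libraries were all below (log2 fold change -0.61, SE 0.21, adjusted p = 0.270, edgeR). The ependymal score overlapped between the groups on both days, with means of 2.902 in control and 3.144 in stressed libraries on day 1 and of 3.457 and 3.239 on day 10. In the fit with the score, the day 1 value of Cfap206 was 0.42 and the day 10 value -0.41.

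Cfap54, a large scaffold of the central pair, went against that order. On day 7 it stood at 20.4, 21.6 and 25.4 CPM in control and 29.3, 34.3 and 28.7 CPM in stressed libraries, without overlap (log2 fold change 0.45, SE 0.16, adjusted p = 0.999, edgeR). On day 10 it stood at 17.4, 21.4 and 22.3 and 23.9, 26.0 and 32.0 CPM, again with every stressed library above the controls (0.42, SE 0.16, adjusted p = 0.297, edgeR). In the mean over 4 days Cfap54 had a log2 fold change of 0.23 (SE 0.08, adjusted p = 0.553, edgeR), and Dnah14, an inner arm heavy chain at a median of 1.63 CPM, one of 0.45 (SE 0.14, adjusted p = 0.433, edgeR). Neither passed the test. Dnah14 is among the genes with an overlapping neighbour (Lbr), so its counts may hold reads of that gene.

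Other members with the smallest p on a day were Cfap65 on day 1 (log2 fold change 0.64, SE 0.22), Cfap99 (0.46, SE 0.29) and Cfap46 (0.24, SE 0.16) on day 4, Dnah10 (0.46, SE 0.20) and Tekt2 (0.59, SE 0.28) on day 7, and Cfap69 (-0.41, SE 0.18) on day 10. Dnah14 was also among them on days 1 and 4. With 1 library left out, its log2 fold change ran from 0.68 to 0.96 on day 1 and from 0.33 to 0.83 on day 4. None of these members passed the adjusted threshold. Stressed libraries lay wholly above the controls in 5, 1, 3 and 2 members on days 1, 4, 7 and 10, against 5.30%, 7.16%, 4.95% and 8.44% of all genes, and wholly below in 0, 1, 1 and 9 members, against 6.26%, 8.41%, 4.88% and 7.17%. Besides Cfap206, the 9 members below the controls on day 10 were Cfap44, Cfap53, Cfap65, Cfap70, Cfap77, Cfap100, Cfap221 and Tekt1.

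Days were also compared. The comparison of day 10 with the mean of days 1, 4 and 7, over both conditions, was added after the heat map of these values had been seen. It called 28 of 62 members, 14 higher and 14 lower on day 10, against 22.8% of all genes higher and 23.7% lower, so the members' share of 45.2% was near the 46.5% of all genes. At an unadjusted p under 0.05 in edgeR there were 37 members, against 52.6% of all genes. Day of collection, time since the start of housing and any processing done day by day cannot be told apart here.

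Cfap36, which binds a small GTPase of the cilium and is broadly expressed, differed most clearly. In control libraries Cfap36 stood at 82.7, 83.3 and 91.7 CPM on day 1, then 94.8, 91.4 and 92.0 CPM on day 4, then 85.9, 93.2 and 96.2 CPM on day 7 and 61.7, 41.2 and 47.9 CPM on day 10. In stressed libraries it stood at 77.2, 76.4 and 85.5 CPM on day 1, then 89.9, 92.8 and 89.99 CPM on day 4, then 99.99, 95.7 and 87.3 CPM on day 7 and 49.5, 52.5 and 55.2 CPM on day 10. All 6 day 10 libraries (41.2 to 61.7 CPM) lay below all 18 others (76.4 to 99.99 CPM), with a log2 difference of -0.80 (SE 0.06, adjusted p = 5.67e-10, edgeR). Cfap69, a central apparatus gene, stood at 10.3 to 19.5 CPM in the 6 day 10 libraries and at 21.0 to 38.5 CPM in the other 18, also without overlap (-0.97, SE 0.11, adjusted p = 2.44e-07, edgeR). Cfap97 separated in the same way, at 26.6 to 32.1 against 33.5 to 47.6 CPM (-0.49, SE 0.04). So did Dnah7b, narrowly, at 7.46 to 9.89 against 9.97 to 24.1 CPM. The share of all genes that separated like this was not computed, and 46.5% of all genes were called in this comparison.

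Members that were lower on day 10 also included Dnah12 (-0.85, SE 0.15), Dnah7b (-0.71, SE 0.12), Cfap47 (-0.69, SE 0.14), Cfap44 (-0.69, SE 0.11), Cfap46 (-0.68, SE 0.10), Cfap100 (-0.63, SE 0.13) and Dnah3 (-0.61, SE 0.12). Of the 7 central apparatus Cfap genes 5 fell and none rose, and of the 10 inner arm heavy chains 4 fell and none rose. Of all genes, 23.7% were lower and 22.8% higher, and roles were not tested as sets. The 4 heavy chains were Dnah12, Dnah3, Dnah7b and Dnah7c. Among these only Dnah12 has neither a near copy nor an overlapping protein-coding gene, so the other values are uncertain. Radial spoke genes went the other way, with 6 of 8 higher on day 10, among them Cfap61 (0.57, SE 0.15), Rsph1 (0.42, SE 0.13), Cfap206 (0.38, SE 0.12) and Rsph3a (0.33, SE 0.10). Values of Cfap61, with an overlapping gene, and of Rsph3a, a near copy of Rsph3b, are uncertain too. The doublet inner proteins Cfap77 (0.75, SE 0.17), Cfap126 (0.53, SE 0.16) and Cfap52 (0.54, SE 0.18) were higher as well. The median difference was 0.03 over the members and 0.01 over all genes.

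Across the 62 members the day 10 difference was lower in genes with longer transcripts (Spearman rho = -0.47 across genes, which are not independent), and over all 18060 genes rho was -0.25. The same measure for the ependymal slope was -0.25 over the 62 members. Of the 27 members with a transcript over 5000 bases 11 rose with the ependymal score, with a median slope of 0.49, and of the 35 shorter ones 21 rose, with a median of 0.78. Of the 18 ependymal markers 8 were higher and 1 was lower on day 10, with a median of 0.29. With the ependymal score in the fit, Cfap36 had a day 10 difference of -0.83 and Cfap69 of -1.03. Their slopes on the score were 0.19 and 0.33. Cfap61, Cfap206, Cfap126 and Cfap52, which were higher on day 10, had slopes of 1.05, 0.87, 1.21 and 1.40. The fit with the score also covered these higher members, but its values for them are not printed here. No test compared their day 10 differences with and without the score.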

How the data were processed

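The authors deposited whole-number read counts per gene and FPKM per gene for 24 libraries and 28859 genes. The submitters' processing notes name fastp, HISAT2, HTSeq and the build GRCm39; versions, and whether counting used strand, are not given in the sources used here. The deposited FPKM of all 27139 genes detected in 2 or more libraries could be rebuilt from count, column total and 1 length per gene (relative tolerance 1e-06).

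The analysis used edgeR 4.0.16 in R 4.3.3 (filterByExpr by group, 18060 genes tested, TMM scaling, quasi-likelihood test). Its model had a mean for each of 8 groups and left 16 residual degrees of freedom. Slopes came from the same model plus a marker score, the mean log2 CPM (prior count 2) of 18 ependymal or 20 choroid plexus markers. Two-sided p-values were corrected over the whole set of tested genes (Benjamini-Hochberg), with calls at an adjusted p below 0.05. Dividing an estimate by the root of its F gave the SE. CPM were computed after TMM. FPKM served for levels between genes. Tests were checked on simulated counts. DESeq2 1.42.0 and limma 3.58.1 (on log2 FPKM) were alternatives, as were other scaling, other filters, a replicate block and leaving out each library. The counts of 59 of 62 members were 10 or more in every library.

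Members and gene lists were chosen with earlier results of these data known. Named members were those with the smallest p in each comparison (up to 20 called, otherwise 3), the highest FPKM, the largest and smallest slopes, those at the level limit and a list of known cilia genes; remaining members were named to complete their role. Promoters were matched by Entrez gene number. By GENCODE M21 (GRCm38), 25 of the 62 members have an exon overlapping another gene, 10 of them a protein-coding gene, and their reads may be shared. Replicate numbers were not taken to pair the libraries. Deviations from the group means, over all tested genes, had correlations from -0.423 to 0.181 between same-numbered control and stressed libraries of a day. Such correlations do not settle whether the libraries were paired.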

Additional observations from a re-analysis of the deposited data

How the results depend on the processing

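The count of 32 members rising with the ependymal score was 28 with the replicate block, all 28 among the 32. Whether the replicate numbers pair the libraries is not settled. The block left the count at 0 in each CSDS comparison, at 23 against 22 for the choroid plexus score and at 30 against 28 for day 10. With RLE size factors, other filters, Foxj1 alone as the score, limma on FPKM with either pseudocount, control libraries alone or DESeq2 the ependymal count was 25 to 34. It was 16 with the choroid plexus score added and 0 in CSDS libraries alone. Leaving out 1 library gave 24 to 34, and 22 members were called in all 24 such runs. The choroid plexus count of 22 was 1 with the ependymal score added and 13 to 23 with 1 library left out, the lowest without day 7 control library 3 (13) and day 4 control library 2 (14). The CSDS counts stayed at 0 under all settings run, other than the test between days, where DESeq2 called 1 (Cfap206). The day 10 count was 25 to 32 under other settings and 23 to 34 with 1 library left out. Signs of ependymal slopes that did not pass the test turned in CSDS libraries alone for Drc1 (-0.11), Dnah1 (-0.13) and Tekt2 (0.24), with the choroid plexus score added for Dnah17 (-0.033) and Cfap97 (0.10), with Foxj1 alone for Dnah8 (0.027), and for Cfap20 with RLE (-0.0019), no filter (-0.00931) and DESeq2 (-0.0022). With 1 library left out they ran from -0.038 to 0.070 for Cfap20, -0.015 to 0.16 for Dnah1, -0.051 to 0.39 for Dnah17, -0.56 to 0.031 for Dnah8 and -0.32 to 0.047 for Tekt2. With the ependymal score added the choroid plexus slopes of Rsph4a and Drc3 were -0.013 and -0.0079. The cause of these changes was not tested. Low counts limit Dnah8, Dnah17 and Tekt3, whose slopes had standard errors of 0.38 to 0.49, and Tekt3 lost its call in 1 of 24 left-out runs.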
